A study of Mus musculus with 2 samples.

Results

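Genes of blood vessel pericytes and of the extracellular matrix, 7 in all, were examined in the embryonic mouse pancreas. They are the pericyte genes Rgs5, Kcnj8 and Abcc9 and the matrix genes Sparcl1, Col8a1, Fbln2 and Acan. All 7 were found by symbol among the 250 genes of the deposited table, which holds only genes that the authors called changed. They were chosen by these same FPKM values, as genes lower in the mutant library, so the values below describe them and test nothing.

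The mutant group was 1 library from a pool of 12 pancreata taken at stage e12.5, in mid-gestation. Those embryos carried Pdxcre with floxed Gata4 (Gata4fl/fl) and floxed Gata6 (Gata6fl/fl), a pair of zinc finger transcription factors. The series title adds Tom to the mutant genotype without saying what it is. The control group was 1 library from a pool of 6 pancreata of the same age, labelled as control, with no alleles given. Pdx1, whose promoter drives the Cre, is active in the pancreatic epithelium, so deletion is directed at cells other than pericytes and matrix-producing mesenchyme. The whole organ was used and no sorting is described, so a lower value can mean fewer cells of a type or less RNA per cell, and these cannot be told apart. There are no replicates, so no value has an error, no difference has a test, and animals within a pool cannot be told apart. The table has no row for Gata4 or Gata6, and the deletion could not be checked from it. Pdx1 and Ptf1a of the pancreatic epithelium are outside the table too, while the pancreatic genes Cpa1 and Gcg are in it.

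Pericytes are contractile support cells that wrap capillaries and share a basement membrane with the endothelium. Rgs5 encodes a regulator that speeds the shutdown of G protein signalling and is a widely used pericyte marker. Kcnj8 encodes the pore and Abcc9 the sulfonylurea receptor of the ATP-sensitive potassium channel of vascular mural cells, which ties membrane potential to the energy state of the cell. The matrix genes encode secreted proteins. Sparcl1 is a SPARC-like glycoprotein, Col8a1 a chain of a short, network-forming collagen found around vessels, Fbln2 a fibulin of elastic fibres and basement membranes, and Acan the large proteoglycan best known from cartilage.

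Kcnj8 and Abcc9 are neighbours on mouse chromosome 6. On the mm9 build the table places Kcnj8 at chr6:142513459-142519876 and Abcc9 at chr6:142536382-142650794, both on the minus strand. The end of Abcc9 lies 16.5 kb from the start of Kcnj8, with no other coding gene between them. RefSeq promoter windows, 250 bases before to 50 bases after the start, were found for 6 of the 7 genes and for Col8a2, which encodes the partner chain of Col8a1. Sparcl1 had no entry. Each of these windows matched mm9 exactly at 1 place near its gene. Shown are the 3 pericyte genes and the pair of collagen chains: Kcnj8 and Abcc9 because they lie side by side, Rgs5 as the third pericyte gene, on another chromosome, and Col8a1 and Col8a2 because they encode partner chains. Capitals mark matches, on either strand, to the motifs searched.
Kcnj8: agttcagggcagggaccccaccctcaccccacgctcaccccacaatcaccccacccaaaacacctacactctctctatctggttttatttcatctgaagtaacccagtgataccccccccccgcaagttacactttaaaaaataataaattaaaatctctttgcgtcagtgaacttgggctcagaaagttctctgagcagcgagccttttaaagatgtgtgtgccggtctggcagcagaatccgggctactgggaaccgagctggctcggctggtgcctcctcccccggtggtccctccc
Abcc9: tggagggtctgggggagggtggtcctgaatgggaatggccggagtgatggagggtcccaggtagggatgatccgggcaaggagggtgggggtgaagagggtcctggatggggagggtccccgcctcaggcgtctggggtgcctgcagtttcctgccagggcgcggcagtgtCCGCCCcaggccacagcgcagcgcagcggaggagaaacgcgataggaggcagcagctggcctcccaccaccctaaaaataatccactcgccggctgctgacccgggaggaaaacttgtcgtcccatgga
Rgs5: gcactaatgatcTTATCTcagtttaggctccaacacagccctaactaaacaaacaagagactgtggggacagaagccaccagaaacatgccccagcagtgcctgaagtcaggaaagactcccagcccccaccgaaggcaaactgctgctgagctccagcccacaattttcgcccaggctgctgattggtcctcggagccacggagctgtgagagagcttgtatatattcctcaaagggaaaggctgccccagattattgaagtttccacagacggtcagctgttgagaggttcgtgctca
Col8a1: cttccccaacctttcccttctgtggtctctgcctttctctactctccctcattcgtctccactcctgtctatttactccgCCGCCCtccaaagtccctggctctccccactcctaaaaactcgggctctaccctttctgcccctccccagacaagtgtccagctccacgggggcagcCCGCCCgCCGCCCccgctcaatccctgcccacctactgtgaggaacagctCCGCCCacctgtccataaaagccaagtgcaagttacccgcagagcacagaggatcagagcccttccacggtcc
Col8a2: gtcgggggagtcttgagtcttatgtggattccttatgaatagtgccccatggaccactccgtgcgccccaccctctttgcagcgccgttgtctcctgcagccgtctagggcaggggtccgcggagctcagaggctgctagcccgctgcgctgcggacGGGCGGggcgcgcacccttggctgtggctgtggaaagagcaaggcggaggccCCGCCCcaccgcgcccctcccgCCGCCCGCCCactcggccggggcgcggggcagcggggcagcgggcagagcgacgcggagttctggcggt

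On mm9 the Kcnj8 window is chr6:142520085-142520384 on the minus strand, and its RefSeq start lies 258 bases upstream of the start in the table. The other 4 windows printed use the start in the table. They are chr6:142650745-142651044 for Abcc9 and chr16:57754801-57755100 for Col8a1 on the minus strand, and chr1:171585382-171585681 for Rgs5 and chr4:125963788-125964087 for Col8a2 on the plus strand. The motifs were TATAAA, the GC box GGGCGG, the GATA-type letters AGATAA and TGATAA, the Gli-type letters GACCACCCA and the CArG box, each on both strands. GGGCGG was present in the windows of Abcc9, Col8a1, Col8a2, Fbln2 and Acan, and in 35.7% of 32851 RefSeq windows. The Acan window, not printed, is set on a RefSeq start 257 bases upstream of the start in the table. Some of the Acan and Col8a2 matches overlap each other. AGATAA was present in the Rgs5 window, at positions -238 to -233 on the minus strand, and in 11.2% of all windows. TATAAA (13.6% of all windows), TGATAA (9.05%), GACCACCCA (0.253%) and the CArG box (1.63%) were in none of the 7 windows. The Kcnj8 window held none of the motifs, although its neighbour Abcc9 had 1 GC box. The G and C content was 53.3% for Kcnj8 and 65.7% for Abcc9, against a median of 52.7% over all windows. These matches describe letters in a window and say nothing of binding.

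All 3 pericyte genes were lower in the mutant library. Levels are the authors' FPKM, which correct fragment counts for transcript length and library size, so they can be set side by side between genes. Differences are given as log2((mutant FPKM + 1)/(control FPKM + 1)), called the log2 ratio below, and a gene is called lower or higher when this is at least 1 in size with 1 FPKM or more in at least 1 library. Changes of genes with low FPKM come out smaller on this scale.

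Rgs5, at chr1:171585632-171623657, had 5.73 FPKM in the mutant library and 32.9 FPKM in the control library. The mutant value was 17.4% of the control value, a log2 ratio of -2.33. Kcnj8 had 13.1 FPKM in the mutant library and 33.8 FPKM in the control library, a log2 ratio of -1.31. Rgs5 and Kcnj8 thus stood at nearly the same level in the control and apart in the mutant. Abcc9 had 7.22 FPKM in the mutant library and 19.5 FPKM in the control library, a log2 ratio of -1.32. The channel subunits kept 38.6% (Kcnj8) and 37.0% (Abcc9) of their control values.

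The proportions among these genes can be compared within each library, which removes any scaling between the libraries. Kcnj8 over Abcc9 was 1.81 in the mutant library and 1.73 in the control library. The pore gene therefore exceeded the receptor gene by much the same factor in both. Rgs5 over Kcnj8 was 0.439 in the mutant library and 0.973 in the control library. Rgs5 was lower relative to the channel genes, and the table has no replicate to set this against. Added together, the 3 pericyte genes had 26.0 FPKM in the mutant library and 86.2 FPKM in the control library.

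**Figure D1:**
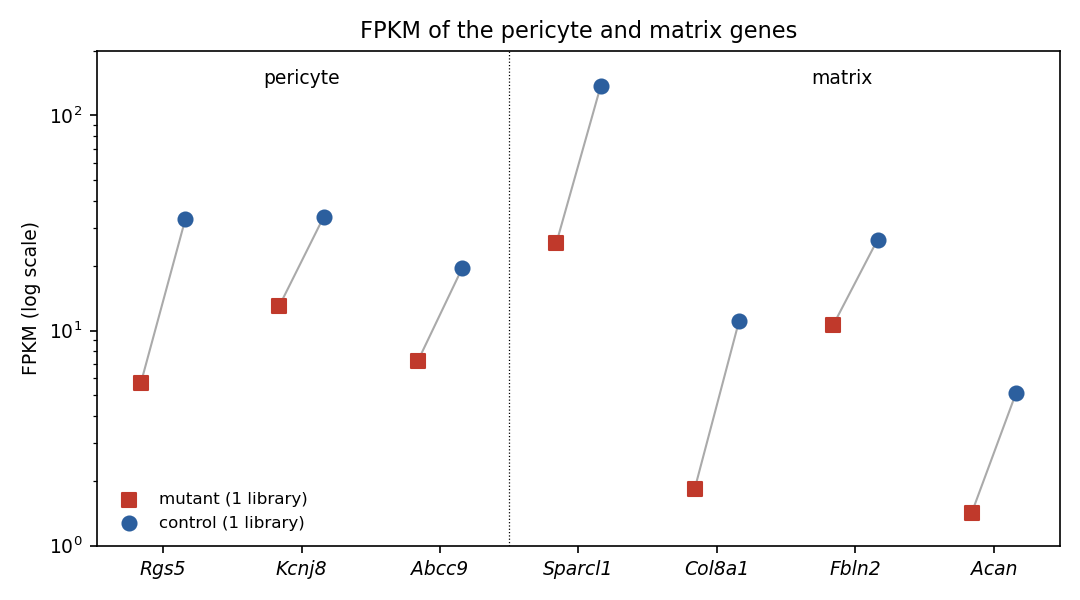
FPKM on a log scale of the 3 pericyte and 4 matrix genes in the mutant library (squares, left in each pair) and the control library (circles, right), 1 library each, joined by a line for each gene. In every pair the mutant value is below the control value, with Rgs5 at 5.73 against 32.9 FPKM and Sparcl1 at 25.5 against 136.7 FPKM.

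Among the matrix genes Sparcl1, at chr5:104508128-104543107, was the most abundant. It had 25.5 FPKM in the mutant library and 136.7 FPKM in the control library, a log2 ratio of -2.38. By level it ranked 25 of 250 table genes in the mutant library and 6 in the control library. Col8a1, at chr16:57624369-57754850, had 1.84 FPKM in the mutant library and 11.1 FPKM in the control library, a log2 ratio of -2.09. The mutant value was 16.6% of the control value, the smallest share of the 7 genes. Fbln2, at chr6:91162758-91222534, had 10.6 FPKM in the mutant library and 26.5 FPKM in the control library, a log2 ratio of -1.24, the smallest difference of the 7. Acan, at chr7:86198369-86259985, had 1.42 FPKM in the mutant library and 5.12 FPKM in the control library, a log2 ratio of -1.34. Acan was the least abundant of the 7 in both libraries, and with 5 FPKM added in place of 1 its log2 ratio was -0.66, which is not called lower. No other matrix gene of the cartilage list was in the table.

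By share of the control value, the 7 genes held a set with larger and a set with smaller differences, with Acan between them. Rgs5, Sparcl1 and Col8a1 had mutant values of 16.6% to 18.7% of control. Acan was at 27.8%, and Abcc9, Kcnj8 and Fbln2 were at 37.0% to 40.1%. The first set is split between pericyte and matrix genes, as is the second. By the rule of size 7 of 7 genes were lower, beside 45.2% of all 250 table genes, and nothing is read from this because the genes were chosen for it. The median log2 ratio was -1.34 over the 7 genes and 0.87 over the 250. With a 4-fold limit in place of 2-fold, the count was 3, made up of Rgs5, Sparcl1 and Col8a1.

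The q of the authors' deposited table was 8.62e-08 for Sparcl1, 7.53e-05 for Col8a1 and 0.000136 for Rgs5. These compare a pair of libraries and hold no variation between embryos. It was, again from the authors' deposited table, 0.0122 for Abcc9, 0.0208 for Acan, 0.0282 for Fbln2 and 0.0471 for Kcnj8. No q of the authors' deposited table exceeded 0.0496, so Kcnj8 lies just inside the limit of the table, with the 9th highest q. Genes just outside that limit were not analysed here.

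**Figure D2:**
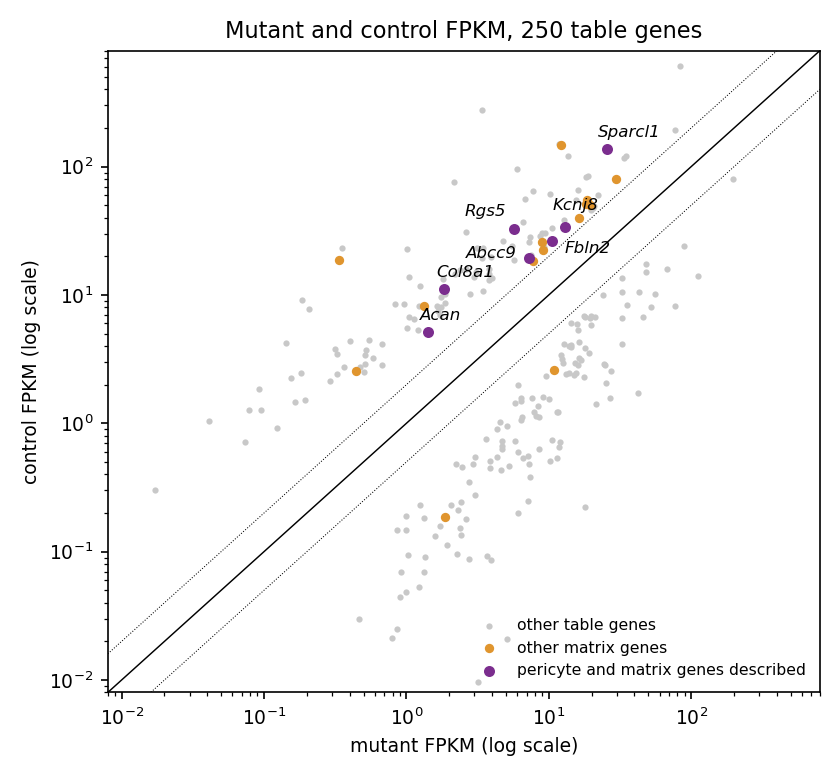
Mutant FPKM (horizontal) against control FPKM (vertical), both on log scales, for the 250 table genes in 1 library per genotype, with a solid line of equal values and dotted lines at 2-fold. The 7 pericyte and matrix genes (purple) lie above the line, from Acan at 1.42 against 5.12 FPKM to Sparcl1 at 25.5 against 136.7 FPKM. Other matrix genes are orange, and 2 of these 14 lie below the line.

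The close relatives of the pericyte genes give a sparse picture. Of 29 pericyte genes listed, Rgs5, Kcnj8 and Abcc9 were the only 3 in the table, and the other 26, among them Pdgfrb, Cspg4 and Notch3, were outside it. A gene outside either was not tested by the authors or did not pass, so no value can be given for it. Of the 4 genes for subunits of this channel type, Kcnj11 and Abcc8, which make the form known from insulin-secreting cells, were outside. Rgs5 was the only 1 of 21 Rgs genes in the table. Kcnd3 and Kcng1, the only potassium channel genes of other families found in the table by symbol, were higher, beside 48.4% of all table genes. This comparison was chosen after the values were seen, and nothing is read from it about such genes as a group. Kcnd3, a voltage-gated channel pore, had 6.34 FPKM in the mutant library and 1.57 FPKM in the control library. Kcng1, a modifier subunit of voltage-gated channels, had 7.10 FPKM in the mutant library and 0.553 FPKM in the control library. Of 24 endothelial genes 1 was in the table, Prox1, which is also expressed in pancreatic epithelium, at 2.81 FPKM in the mutant library and 10.2 FPKM in the control library. Most vessel genes thus have no value here, and whether the number of vessels differed was not tested.

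Smooth muscle genes, which mark the contractile cells of the gut wall and of larger vessels, mostly differed in the other direction. Of 20 listed, 10 were in the table, with 9 higher and 1 lower in the mutant library and a median log2 ratio of 1.96. Among all table genes 48.4% were higher and 45.2% lower, with a median of 0.87. Acta2, the smooth muscle actin that pericytes can also express, had 88.8 FPKM in the mutant library and 24.0 FPKM in the control library. Actg2, the visceral actin, had 52.4 FPKM in the mutant library and 8.10 FPKM in the control library. Synpo2, an actin-binding protein, was higher as well. Des, the muscle intermediate filament protein that is also used to mark pericytes, was the exception, with 10.5 FPKM in the mutant library and 33.4 FPKM in the control library. Des was thus lower, as were Rgs5, Kcnj8 and Abcc9, while Acta2, which pericytes can also express, was higher. Neither Des nor Acta2 is on the pericyte list, and the cells behind their values were not tested.

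Other matrix genes were mostly lower. Over 9 matrix lists joined after the values were seen, 14 genes besides the 4 already described were in the table, and 221 listed and annotated genes were outside it. Of the 14, 12 were lower and 2 higher, beside 45.2% lower and 48.4% higher among all table genes, and their median log2 ratio was -1.36. The 12 include Spp1, which is also a gene of pancreatic duct epithelium and is counted again among the epithelial genes below. The lists were made with earlier results of these data known, so the count is a description. It also depends on which genes were listed. Secreted genes on none of the lists, described under other observations, were lower (Htra1 and Htra3) or higher (Nepn, of the small proteoglycan class).

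Col8a2, the partner chain of Col8a1, had 1.32 FPKM in the mutant library and 8.26 FPKM in the control library, a log2 ratio of -1.99. Col8a1 over Col8a2 was 1.39 in the mutant library and 1.34 in the control library, so the pair kept a similar proportion. The genes lie on chromosomes 16 and 4. Sparcl1 over Rgs5, which do not encode partners, was 4.45 in the mutant library and 4.16 in the control library. A similar proportion is therefore not particular to partner chains, or to Kcnj8 and Abcc9. Col14a1, a fibril-associated collagen, had 7.69 FPKM in the mutant library and 18.5 FPKM in the control library. Emid2, a collagen with an EMI domain, had 16.4 FPKM in the mutant library and 39.6 FPKM in the control library. Col6a4, a chain related to type VI collagen, was the only collagen gene higher, at 1.86 FPKM in the mutant library and 0.187 FPKM in the control library. Of 44 annotated collagen genes, 39 were outside the table, including the fibrillar genes Col1a1, Col1a2 and Col3a1.

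The relatives of Sparcl1 were divided. Smoc2, a secreted calcium-binding protein, had 18.7 FPKM in the mutant library and 54.8 FPKM in the control library. Spock2, a heparan sulfate proteoglycan, had 10.8 FPKM in the mutant library and 2.60 FPKM in the control library. Sparc itself was outside the table. Sparcl1 also has a neighbour in the table. Spp1, which encodes osteopontin and is also on the pancreatic epithelial list, lies 321 kb away on chromosome 5 with 4 coding genes between them (Dspp, Dmp1, Ibsp and Mepe), none of them in the table. Spp1 had 12.1 FPKM in the mutant library and 148 FPKM in the control library, a log2 ratio of -3.51. No other table gene lay within 500 kb of the 7 genes, apart from Kcnj8 and Abcc9 beside each other.

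**Figure D3:**
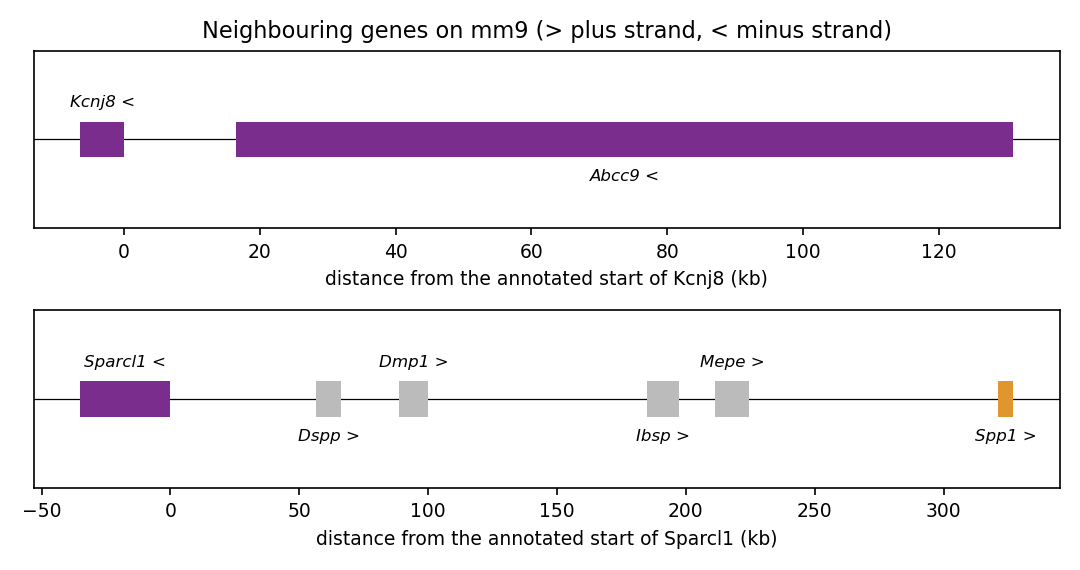
Positions of neighbouring genes on mm9, as distance in kb from the annotated start of Kcnj8 (top) and of Sparcl1 (bottom), with purple for the genes described, orange for another table gene and grey for genes outside the table; arrows give the strand. Kcnj8 and Abcc9 lie 16.5 kb apart on the same strand, and Spp1 lies 321 kb from Sparcl1. The coding gene 5330439B14Rik, inside the Abcc9 locus, is not drawn.

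Of 24 genes of elastic fibres and microfibrils listed, 2 were in the table, Fbln5 and Loxl1, and 22 were outside it. Both were lower, beside 45.2% of all table genes, so nothing is read from this about such genes as a group. Fbln5, a fibulin needed to assemble elastic fibres, had 0.439 FPKM in the mutant library and 2.55 FPKM in the control library. These levels are low, and Fbln5 was not called with a pseudocount of 5, a minimum of 5 FPKM or 1 FPKM in both libraries. Fbln2 over Fbln5 was 24.2 in the mutant library and 10.4 in the control library, so Fbln5 was the lower of the pair relative to control. Loxl1, which cross-links elastin, had 8.90 FPKM in the mutant library and 26.0 FPKM in the control library. Bgn, the small proteoglycan biglycan, had 18.3 FPKM in the mutant library and 50.7 FPKM in the control library. Pcolce, which helps trim procollagen, had 19.5 FPKM in the mutant library and 50.5 FPKM in the control library. These abundant genes had log2 ratios close to those of Fbln2 and the channel genes. Adamts1, a metalloprotease that cleaves large proteoglycans, had 29.7 FPKM in the mutant library and 79.9 FPKM in the control library. Slit2, a secreted guidance ligand, had 9.16 FPKM in the mutant library and 22.3 FPKM in the control library. Kazald1, a secreted protein deposited in matrix, had 0.338 FPKM in the mutant library and 18.7 FPKM in the control library. None of the 23 basement membrane genes listed, the laminins, nidogens and type IV collagens among them, was in the table.

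**Figure D4:**
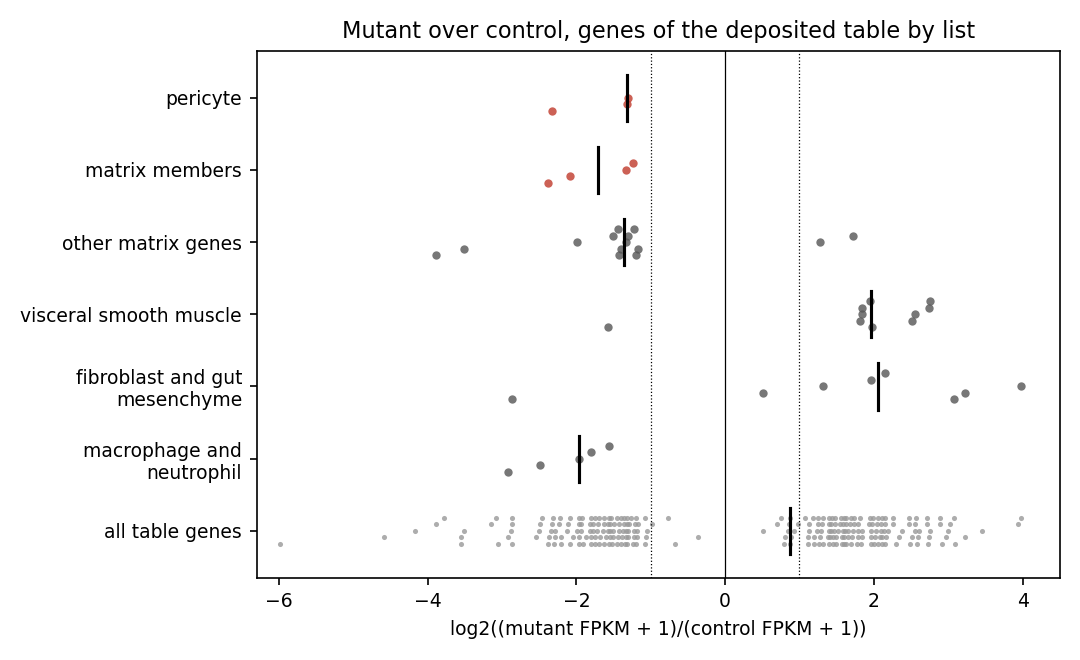
Log2((mutant FPKM + 1)/(control FPKM + 1)) on the horizontal axis for single genes (points) of each list, with the list's median (black bar) and dotted lines at 2-fold; points are spread vertically only to be seen. The pericyte and the matrix genes described (red) lie left of -1, as do 12 of 14 other matrix genes, while 9 of 10 smooth muscle genes lie right of 1.

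Genes of further cell types in the dissected organ differed between the same libraries. Their counts stand beside 45.2% lower and 48.4% higher among all 250 table genes, and call nothing particular to a list. Of 33 fibroblast and gut mesenchyme genes, 8 were in the table. Of these, Foxf1a, Foxf2, Foxl1, Hand1, Six2 and Fgf10 were higher and Prrx1 was lower. Summed over the 8, the level was 194 FPKM in the mutant library and 30.6 FPKM in the control library. All 5 macrophage and neutrophil genes in the table (S100a8, S100a9, Lyz2 and Mrc1 among them), of 22 annotated, were lower, with a sum of 30.9 FPKM in the mutant library and 178 FPKM in the control library. Both spleen primordium genes in the table, Tlx1 and Wt1 of 9 annotated, were lower, with a sum of 5.14 FPKM in the mutant library and 49.6 FPKM in the control library. All 13 pancreatic epithelial genes in the table, of 28 annotated, were lower, and none of the 13 is listed at 0 in either library. Pdx1 and Ptf1a are outside the table and have no value. The neural crest and glia genes in the table, among them Gfra1, Sox10, Tubb3, Ret, Dbh and Elavl3, were higher (8 of 8), as were 7 of 7 skeletal muscle and 9 of 9 hedgehog pathway genes. The lists share members: Foxf1a, Foxf2 and Foxl1 are also hedgehog genes, as is Hhip of the smooth muscle list, and Wt1, Prox1, Spp1 and Ihh each stand on more than 1 list, so these counts are not separate. Of 3 mesothelium genes, Wt1 was lower, Aldh1a2 higher and Msln not called, and of 2 cartilage genes Acan was lower and Ihh, a hedgehog ligand also on that list, higher. No erythroid gene was in the table. The part of these cell types in the values of the 7 genes was not tested.

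The table genes most like each of the 7 were found by distance over log2(FPKM + 1) in the pair of libraries. The nearest gene was Aldh1b1 for Rgs5, at a distance of 0.24, and Dab2 for Kcnj8, at 0.18. It was AW551984 for Abcc9 (0.08), Slc38a5 for Sparcl1 (0.44), Slitrk5 for Col8a1 (0.11), Loxl1 for Fbln2 (0.23) and Ntrk2 for Acan (0.15). Loxl1 is the only matrix gene among them. With only a pair of libraries this measures similar levels and no more.

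The labels give over 20000000 mapped reads and no exact depth for either library. The Abcc9 locus overlaps the coding gene 5330439B14Rik, and the sources used here do not say if reads were counted by strand. The annotation lists 5 coding transcripts of Abcc9 and the table gives a single value, so its receptor variants cannot be told apart. For Rgs5 the annotated gene ends 2287 bases beyond the end in the table. The table gives 1 locus for both libraries, so any effect of this on the FPKM of Rgs5 applies to both.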

How the data were processed

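Total RNA of whole pancreata was sequenced, 1 library per genotype. Per the labels' protocols, RNA integrity was above 8 and reads were mapped with TopHat 2.0.4 to mm9, with 4 mismatches and up to 10 hits, so near-identical genes can share reads. CASAVA 1.8.2, Cufflinks and DESeq are further tools in the submitters' processing notes. The authors deposited FPKM per library, p-values and q-values, a log2 fold change and a test score. The deposited log2 fold change is the log2 ratio of the FPKM values with no pseudocount, and the sources used here do not say how the libraries were scaled.

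From the deposited FPKM, log2 ratios were computed with a pseudocount of 1, and genes were called at 2-fold with 1 FPKM in at least 1 library. Whether these calls would hold in other embryos was not tested, because there is 1 library per genotype. No significance test was run. Genes named were the 7 genes, all table genes of the channel, Rgs, pericyte, matrix, cartilage, fibroblast and neural crest lists, up to 4 of the most abundant genes of the other lists, table genes within 500 kb and the nearest gene by level. Not every gene that this selects is named in the text. Kcnd3, Kcng1 and the genes under other observations fall outside the rule and were chosen after their values were seen, and list genes outside the table are named without values. The genes and the 24 lists were chosen with earlier results of these data known. Positions were compared with GENCODE vM1, and promoters are RefSeq's, on GRCm38.p6, placed on mm9 by exact match. Python 3.11.15, pandas 2.3.3, numpy 2.4.6 and matplotlib 3.10.9 were used. Alternatives covered the pseudocount, FPKM minimum, fold, scaling and q.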

Additional observations from a re-analysis of the deposited data

How the results depend on the processing

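The log2 ratio of each of the 7 genes was negative under every alternative run. None of the alternatives could have made a ratio positive, so this is no support for the direction. Pseudocounts keep the direction by construction, and the authors' fold change comes from the same FPKM values. Limits on FPKM, fold or q leave the ratio as it is, and centring subtracted a positive value. With a pseudocount of 0.1 the ratios were Rgs5 -2.50, Kcnj8 -1.36, Abcc9 -1.42, Sparcl1 -2.42, Col8a1 -2.53, Fbln2 -1.31 and Acan -1.78. With a pseudocount of 5 they were Rgs5 -1.82, Kcnj8 -1.10, Abcc9 -1.003, Sparcl1 -2.22, Col8a1 -1.23, Fbln2 -1.01 and Acan -0.66. The authors' deposited table gives log2 fold changes of Rgs5 -2.52, Kcnj8 -1.37, Abcc9 -1.43, Sparcl1 -2.42, Col8a1 -2.59, Fbln2 -1.32 and Acan -1.85. The centring value was 1.11, the median log2 ratio over table genes with 1 FPKM or more in at least 1 library. These are all genes that the authors called changed. After centring, the ratios were Rgs5 -3.45, Kcnj8 -2.42, Abcc9 -2.43, Sparcl1 -3.49, Col8a1 -3.20, Fbln2 -2.35 and Acan -2.45.

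Of the 7 genes, 3 were lower at 4-fold and 3 at a q of at most 0.01, each time Rgs5, Sparcl1 and Col8a1, so 1 of the 3 pericyte genes passed. Of the 12 other matrix genes lower, 2 passed at 4-fold and 6 at a q of at most 0.01. Of the 2 higher, 1 passed with a pseudocount of 5, a minimum of 5 FPKM or 1 FPKM in both libraries, and 0 at 4-fold or with centring. Among all table genes, 113 were lower and 121 higher. A pseudocount of 5 left 75 lower and 69 higher, and a 4-fold limit left 37 lower and 50 higher. A q of at most 0.01 left 66 lower, 1 FPKM in both libraries left 70 higher and centring left 38 higher. These alternatives shrink ratios near the floor, shift all ratios alike or set a stricter limit. No paired analysis was possible because there is 1 library per genotype.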

Other observations

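Further secreted or cell surface genes of the table, on none of the lists and chosen after their values were seen, were also mostly lower in the mutant library. Itga8, an integrin chain of mesenchymal cells, had 8.75 FPKM in the mutant library and 25.6 FPKM in the control library. Tgm2, a transglutaminase that cross-links matrix proteins, had 9.21 FPKM in the mutant library and 23.5 FPKM in the control library. F13a1, the catalytic chain of the clotting transglutaminase and a macrophage product, had 1.86 FPKM in the mutant library and 8.63 FPKM in the control library. The secreted serine protease genes Htra1 and Htra3 were at 1.23 and 3.83 FPKM in the mutant library, against 8.21 and 15.9 FPKM in the control library.

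In the other direction, Nepn, a secreted leucine-rich repeat protein of the small proteoglycan class, had 32.8 FPKM in the mutant library and 4.12 FPKM in the control library. Pde5a, the phosphodiesterase that degrades cyclic GMP in smooth muscle, had 43.1 FPKM in the mutant library and 10.5 FPKM in the control library.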
